A study of Mus musculus with 24 samples.

Results

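Coagulation and fibrinolysis genes were examined in microvessels isolated from the mouse brain. The set holds 8 genes, namely Plat, Plau, Plaur, F3, Thbd, Procr, Tfpi and Vwf, taken by symbol from the 17270 genes of the deposited expression table, and all 8 passed the filter on low values. The microvessels came from male C57BL/6J mice aged 10 to 12 weeks, with no genetic modification. Mice underwent either transient middle cerebral artery occlusion (tMCAO) of 60 min with a monofilament, a model of stroke with reperfusion, or sham surgery in which the filament was withdrawn at once. The hemisphere of the operated side (ipsilateral) and the opposite hemisphere (contralateral) were taken 24 h or 7 days later. This gave 8 groups with 3 libraries each: sham contralateral, sham ipsilateral, tMCAO contralateral and tMCAO ipsilateral at either time point. Each library held vessels from 3 pooled hemispheres, and all mice were perfused with buffered saline before the brain was removed. In such whole-vessel RNA, fewer cells of a type and less RNA per cell cannot be told apart, and p-values measure the spread between such pools, not between single mice.

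Vessel walls hold the balance between clot formation and clot removal. F3 (tissue factor) starts coagulation by binding factor VII, and Tfpi, the tissue factor pathway inhibitor, blocks that step. Thbd (thrombomodulin) turns thrombin towards activation of protein C, which Procr, the endothelial protein C receptor, holds at the cell surface. Vwf (von Willebrand factor) is stored in endothelial cells and tethers platelets. Plat (tissue-type plasminogen activator) and Plau (urokinase-type plasminogen activator) cut plasminogen to plasmin, which dissolves fibrin, and Plaur is the surface receptor for Plau. In the brain, astrocytes are known as a rich source of tissue factor.

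The libraries held 15924780 to 18787932 normalized counts, and the tests covered the 15982 genes with a mean above 5. The label of the tissue was checked on endothelial markers, and the summed level of the 10 markers was between 180162 and 260765 normalized counts in all 24 libraries. It overlapped between tMCAO and sham ipsilateral vessels at both time points. Other panels did move. The 8 neutrophil and monocyte markers summed to 3501 to 6661 normalized counts in tMCAO ipsilateral vessels at 24 h, against 363 to 1317 in sham. The mean log2 value of the 7 astrocyte markers was lower in tMCAO than in sham ipsilateral vessels without overlap. It differed by -0.83 at 24 h and -0.92 at 7 days, and single markers of the panel were not compared. Against tMCAO contralateral vessels the difference was -0.33 with overlap at 24 h and -1.17 without overlap at 7 days. At 24 h the panel mean was 10.19 in tMCAO ipsilateral, 11.03 in sham ipsilateral and 10.32 in sham contralateral vessels. These values are taken up again beside the genes they moved with.

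RefSeq promoters on GRCm38.p6 were at hand for 4 members, namely Plaur, F3, Procr and Tfpi. The 250 bases before each RefSeq start were searched for 6 motifs on both strands. The AP-1 motif TGANTCA stood once in the promoters of Plaur and Procr and 2 times in that of F3, and 6.75% of all 32851 promoters of this length held it. The 3 sequences are shown because Plaur and Procr varied together across libraries and F3 fell against sham at 7 days. Capitals mark the AP-1 matches, which begin 69 bases before the RefSeq start in Plaur, 146 and 135 bases before it in F3 and 154 bases before it in Procr. All 250 searched bases are shown for Plaur and F3. For Procr the RefSeq start lies inside the GENCODE gene, and the 150 searched bases that precede that gene are shown, with the match beginning 54 bases before their end. The first lies at chr7:24462233-24462482, the second at chr3:121723287-121723536 and the third at chr2:155750967-155751116, all on the plus strand.
Plaur: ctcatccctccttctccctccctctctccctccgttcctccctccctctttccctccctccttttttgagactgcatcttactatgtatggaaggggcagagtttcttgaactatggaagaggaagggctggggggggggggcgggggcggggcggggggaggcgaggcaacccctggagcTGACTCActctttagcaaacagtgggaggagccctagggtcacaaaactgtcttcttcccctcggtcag
F3: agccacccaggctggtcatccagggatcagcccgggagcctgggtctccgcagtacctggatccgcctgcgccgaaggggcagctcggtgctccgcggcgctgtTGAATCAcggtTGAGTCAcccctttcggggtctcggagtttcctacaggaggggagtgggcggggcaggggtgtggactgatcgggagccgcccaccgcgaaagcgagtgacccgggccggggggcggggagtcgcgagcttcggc
Procr: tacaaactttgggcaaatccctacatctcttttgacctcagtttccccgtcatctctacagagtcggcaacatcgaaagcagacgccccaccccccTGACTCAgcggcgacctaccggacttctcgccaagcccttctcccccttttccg

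No AP-1 match lay in either promoter of Tfpi. The Egr motif GCGNGGGCG (4.70% of all promoters) was present in the Plaur promoter, where it overlaps a match of the Sp1 motif. The Sp1 motif GGGCGG (32.7% of promoters) was present in Plaur, F3 and both Tfpi promoters, and the KLF box CACCC (52.0%) in F3, Procr and both Tfpi promoters. Neither the NF-kappaB consensus GGGRNWYYCC (3.9%) nor the hypoxia response core ACGTG (16.6%) was in these windows. Only exact matches were searched, so sites that depart from these letters would be missed. These are matches of letters, not sites shown to be bound.

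The members spanned a wide range of levels. Levels were taken per kb of exon, merged over all annotated transcripts of a gene, and averaged over the 24 libraries. Vwf stood at 3368 normalized counts and Plat at 3233, ranks 174 and 187 of 17253 genes. Thbd followed with 1773, then Procr with 493, Plaur with 433, Tfpi with 174, F3 with 147 and Plau with 104. Some neighbours in this order were not set apart: Vwf was above Plat in 16 of 24 libraries, Procr above Plaur in 17, Plaur above Tfpi in 15 and F3 above Plau in 17. Thbd was above Procr in all 24 libraries, Plat above Thbd in 23 and Tfpi above F3 in 20.

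The span between libraries, which includes the differences between groups, also differed between members. Between the lowest and the highest library, Plaur spanned 43.0-fold, Plau 8.92-fold, F3 6.95-fold, Procr 4.67-fold, Vwf 3.40-fold, Plat 3.29-fold, Thbd 2.43-fold and Tfpi 1.85-fold. On GRCm38, Plau lies at chr14:20836660-20843385, F3 at chr3:121723537-121735048, Vwf at chr6:125546774-125686679 and Plaur at chr7:24462484-24475967, all on the plus strand, with Plat on the same strand at chr8:22757747-22782844. Chromosome 2 holds Procr (chr2:155751117-155755471, plus strand), Thbd (chr2:148404466-148408188) and Tfpi (chr2:84432855-84476775, both minus strand). All are protein-coding, and no exon of another annotated gene overlaps their exons.

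**Figure D1:**
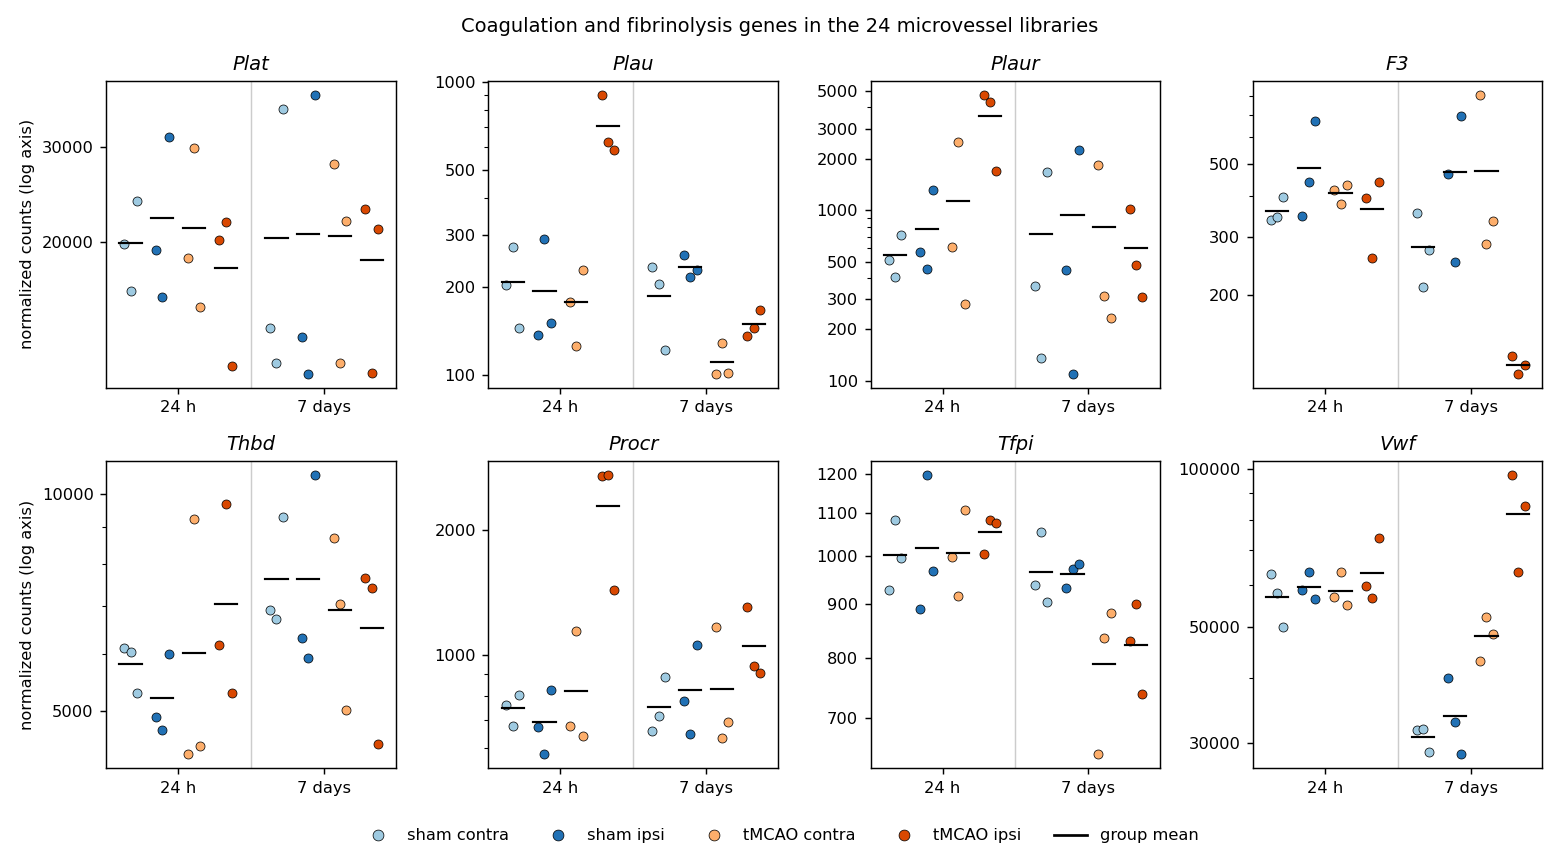
Normalized counts (log axis) of the 8 genes in each of 24 libraries, by group, with the group mean as a bar, 24 h on the left and 7 days on the right of each panel. Plau, Procr and Plaur are highest in the tMCAO ipsilateral vessels at 24 h, F3 is lowest and Vwf highest in those at 7 days, and Plat and Thbd show no such order.

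At 24 h, the urokinase activator and the protein C receptor rose in the vessels of the ischemic hemisphere. Plau read 901, 625 and 586 normalized counts in the tMCAO ipsilateral libraries (704 ± 172, SD, n = 3), against 137, 292 and 151 in sham ipsilateral vessels. All 3 stroke libraries lay above every other library of the series, none of which exceeded 292. This was a 3.78-fold increase, with a log2 fold change of 1.92 (SE 0.29, limma adjusted p = 8.1e-05). The contralateral vessels of the same surgery read 177, 126 and 228, so that the change between hemispheres was 4.0-fold (log2 2.0, adjusted p = 7.19e-05).

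Procr read 2694, 2706 and 1438 normalized counts in tMCAO ipsilateral vessels at 24 h (2279 ± 729) and 673, 579 and 827 in sham. The groups did not overlap, although the third stroke library lay well below the others. The increase was 3.19-fold (log2 1.67, SE 0.27, limma adjusted p = 1.6e-04). Against contralateral vessels, with 678, 1144 and 641, it was 2.76-fold (adjusted p = 6.49e-04). Thbd, which works with Procr in the activation of protein C, read 6174, 9680 and 5298 in tMCAO and 4913, 4717 and 6009 in sham ipsilateral vessels, and these groups overlapped (log2 difference 0.39, 95% confidence interval -0.22 to 1.01, adjusted p = 0.322).

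Plaur, the receptor for Plau, had the largest difference of the members at 24 h and the largest SE. Its values were 4730, 4277 and 1685 normalized counts in tMCAO ipsilateral vessels and 570, 455 and 1308 in sham ipsilateral vessels. The groups did not overlap, yet the log2 difference of 2.22 had an SE of 1.02 and an adjusted p of 0.103 in limma. That SE was estimated over all 8 groups. The SD of log2 values was 0.82 in tMCAO and 0.80 in sham ipsilateral vessels at 24 h, against 2.17 in sham ipsilateral vessels at 7 days. With only the compared groups fitted, Plaur was called (limma adjusted p = 0.0118). Contralateral vessels read 609, 2497 and 284, so that the second of them lay above the third ipsilateral library (log2 2.10, adjusted p = 0.138). Each ipsilateral library lay above the contralateral library of the same number. With same-numbered libraries as blocks, Plaur was called between hemispheres (limma adjusted p = 4.98e-04), though the labels do not state that they share mice. The neutrophil and monocyte panel was higher by 2.62 on the log2 scale in these stroke libraries, and its part in the 24 h values of Plau, Plaur and Procr was not tested. Within groups this panel correlated at 0.669 with Plaur, 0.523 with Procr and -0.12 with Plau. Plau went within groups with the microglia panel (0.789), which overlapped between tMCAO and sham at 24 h (mean log2 difference -0.24). The macrophage panel, at 0.731 with Plau over the 24 libraries and 0.168 within groups, was higher by 0.70 with overlap.

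The remaining members showed no call at 24 h. Vwf read 59684, 56618 and 73823 normalized counts in tMCAO and 58797, 63604 and 56521 in sham ipsilateral vessels (log2 difference 0.08, interval -0.29 to 0.45, adjusted p = 0.763). Tfpi read 1006, 1083 and 1076 against 890, 1196 and 969, with a log2 difference of 0.06 (interval -0.19 to 0.31). F3 read 395, 259 and 440 against 347, 440 and 673 (log2 difference -0.40, interval -1.12 to 0.33). Plat read 20144, 21784 and 11773 against 19331, 15777 and 31308 (log2 difference -0.30, interval -1.26 to 0.67). In all of these genes the tMCAO and sham libraries overlapped.

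A gene was called with a limma adjusted p under 0.05 and a change of more than 1.5-fold. By this rule 2 of the 8 members were called against sham at 24 h, both higher, while 18.3% of all tested genes were called in either direction. The median log2 difference of the members was 0.24, beside -0.02 over all tested genes. Against the contralateral hemisphere the same 2 members were called, beside 13.6% of all genes, in a fit without pairs. With same-numbered libraries as blocks, Plaur was called there as well (limma adjusted p = 4.98e-04). The calls of Plau and Procr in the fit without pairs held when any single library was left out.

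At 7 days a different pair of members was called. F3 read 131, 116 and 123 normalized counts in tMCAO ipsilateral vessels (123 ± 7.51, n = 3), the lowest values of the gene in the series. Sham ipsilateral vessels read 465, 253 and 698 (472 ± 223) and tMCAO contralateral vessels 806, 286 and 336. F3 fell by 1.81 on the log2 scale against sham (SE 0.35, limma adjusted p = 0.00103), to a level 3.51-fold lower. Against the contralateral hemisphere F3 fell by 1.78 on the log2 scale (adjusted p = 9.06e-04).

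Panels of astrocyte markers and of markers of other cells moved with F3. The 7 astrocyte markers summed to 9856 to 13311 normalized counts in tMCAO ipsilateral vessels at 7 days and to 15473 to 32430 in sham, while the neuron panel had a mean log2 difference of -2.91 and the choroid plexus panel of -2.69, both without overlap. Across the 24 libraries the log2 level of F3 correlated with the neuron panel at r = 0.760, with the astrocyte panel at 0.751 and with the choroid plexus panel at 0.673. Within groups these values were 0.338, 0.678 and 0.465, and that of the macrophage panel was 0.639. Their part in the level of F3 was not tested. Taken relative to the astrocyte panel in the same library, F3 was lower at 7 days without overlap. The log2 difference was -0.90 from sham and -0.62 from the contralateral side. An exact permutation test of 3 against 3 libraries, whose smallest 2-sided p is 0.1, gave that value in both cases. At 24 h the same measure was higher by 0.44 than in sham, with overlap (exact permutation p = 0.3). This comparison with the panel was added after the data were seen, and it was formed for the astrocyte panel only. Marker RNA per cell was not measured, so the comparison cannot tell a change in astrocyte number from a change in F3 per cell.

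Vwf was highest in the ischemic hemisphere at 7 days. It read 97222, 63555 and 84995 normalized counts in tMCAO ipsilateral vessels (81924 ± 17042), 42952, 52254 and 48500 in tMCAO contralateral vessels, 39844, 32851 and 28592 in sham ipsilateral vessels and 31720, 31859 and 28898 in sham contralateral vessels. The ischemic hemisphere lay above all other groups of that day, and the contralateral hemisphere above both sham groups. The difference from sham ipsilateral vessels was 2.41-fold (log2 1.27, SE 0.18, limma adjusted p = 5.37e-05). Against the contralateral side it was 1.69-fold (log2 0.76, adjusted p = 0.00449). The contralateral vessels were higher than those of sham by 0.63 on the log2 scale without overlap, but with an adjusted p of 0.272 this was not called.

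Sham vessels also differed between the days. Vwf fell by 0.83 on the log2 scale between 24 h and 7 days in sham ipsilateral vessels (limma adjusted p = 0.033) and by 0.88 in sham contralateral vessels (adjusted p = 0.0301), in both cases without overlap. In tMCAO ipsilateral vessels the 7 day level was 0.36 above that of 24 h (interval -0.01 to 0.73, adjusted p = 0.168). These sham calls were fragile. The contralateral one was lost without any of its 6 libraries (adjusted p 0.0607 to 0.177), and the ipsilateral one without each library except the first of 7 days (adjusted p up to 0.138). The erythroid markers summed to 12535 to 58908 normalized counts in the sham libraries of 7 days and to 334 to 9857 in those of 24 h, and whether this bears on Vwf was not tested. The platelet panel, whose cells also carry Vwf, differed by -0.08 as a mean log2 value between tMCAO and sham ipsilateral vessels at 7 days, and the endothelial panel by 0.08, both with overlap. Within the platelet panel Pf4 was lower (112 against 365 normalized counts on average), whereas Itga2b read 106 against 54.3, Ppbp 39 against 35.3 and Gp9 17.3 against 14.3.

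The genes of fibrinolysis were not called at 7 days. Plau read 136, 145 and 167 normalized counts in tMCAO and 256, 216 and 228 in sham ipsilateral vessels, without overlap, but with a log2 difference of -0.64 and an adjusted p of 0.143. It was higher than in contralateral vessels, which read 101, 129 and 102, again without overlap (log2 difference 0.43, adjusted p = 0.381). Plaur read 1019, 477 and 310 against 448, 110 and 2253 in sham, and Plat 23019, 11423 and 21120 against 13341, 11386 and 37464. For Plaur and Plat the spread within the sham group was wider than the distance between the groups.

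The protein C genes and Tfpi were likewise not called at 7 days. Procr read 1308, 944 and 908 normalized counts in tMCAO and 776, 648 and 1056 in sham ipsilateral vessels (log2 difference 0.36, interval -0.21 to 0.93). Thbd read 7651, 7401 and 4509 against 6316, 5935 and 10619 (log2 difference -0.21, interval -0.83 to 0.40). Tfpi read 830, 901 and 739 against 933, 972 and 983, without overlap, with a log2 difference of -0.23 and an adjusted p of 0.214. Tfpi had the narrowest interval of the members, from -0.48 to 0.02.

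By the same rule 2 of the 8 members were called against sham at 7 days, 1 higher and 1 lower, beside 13.2% of all tested genes. Their median log2 difference was -0.11, and that of all tested genes 0.02. Against the contralateral hemisphere the same members were called, beside 13% of all genes. The call of Vwf between hemispheres was lost when only those groups were fitted (adjusted p = 0.165) and when libraries were centred on the endothelial panel (log2 0.56, adjusted p = 0.0509).

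**Figure D2:**
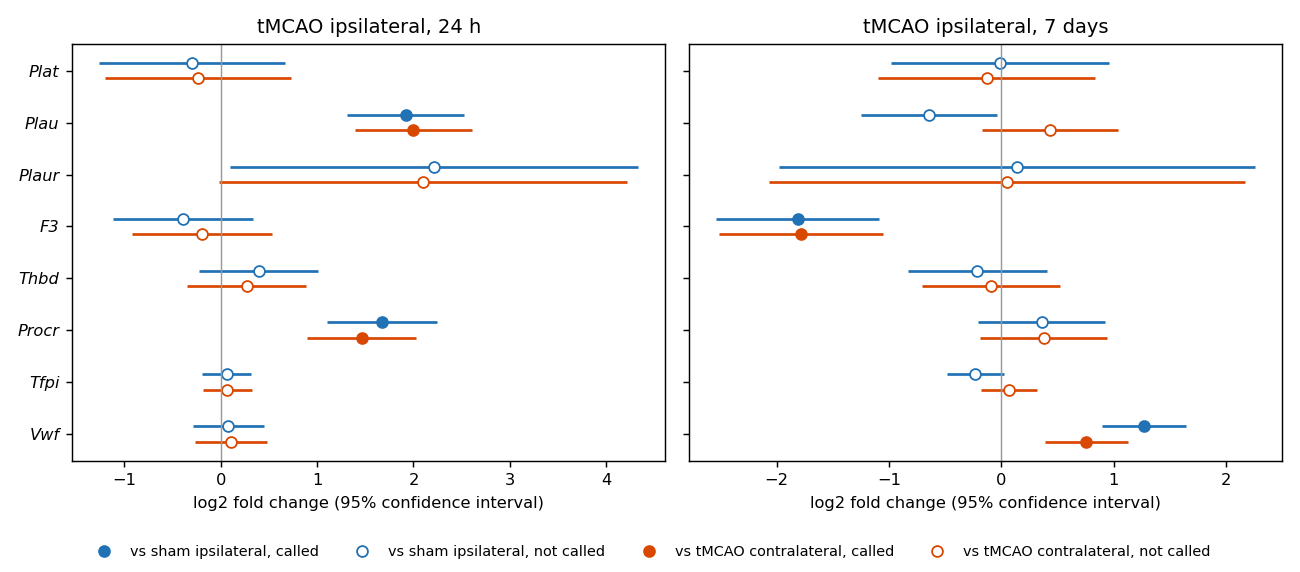
Log2 fold change of each gene in tMCAO ipsilateral vessels against sham ipsilateral (blue) and tMCAO contralateral vessels (orange), with 95% confidence intervals from limma, at 24 h and 7 days, filled where called. Plau and Procr are called at 24 h and F3 and Vwf at 7 days against both references, and Plaur has the widest intervals.

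Between the time points, 3 of the 8 members differed within the ischemic hemisphere, all lower at 7 days, beside 12.2% of all genes. Plau fell by 2.21 on the log2 scale (limma adjusted p = 5.1e-05), F3 by 1.52 (adjusted p = 0.0049) and Procr by 1.07 (adjusted p = 0.00936). The call of Procr was lost without the first tMCAO ipsilateral library of 24 h (log2 -0.92, adjusted p = 0.0583). Plaur had a log2 difference of -2.60 without overlap, from 1685 to 4730 normalized counts at 24 h to 310 to 1019 at 7 days, with an adjusted p of 0.0779. Tfpi had a log2 difference of -0.36 (adjusted p = 0.0405), which is under the limit of 1.5-fold.

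The difference between the stroke effects of both days was tested as an interaction, for which the adjusted p alone decided. It was called for 3 of the 8 members, beside 10.2% of all genes. The effect at 7 days minus that at 24 h was -2.56 on the log2 scale for Plau (limma adjusted p = 5.94e-04), -1.31 for Procr (adjusted p = 0.0338) and 1.19 for Vwf (adjusted p = 0.00544). For F3 the difference was -1.42 with an adjusted p of 0.0712. It was called without the third sham ipsilateral library of 24 h (adjusted p = 0.0482) or the second of 7 days (adjusted p = 0.0211). The call of Procr was lost in 8 of 12 fits with a library left out (adjusted p up to 0.0966). It was kept only without ipsilateral library 3 of sham or tMCAO at 24 h, sham library 2 of 7 days or tMCAO library 1 of 7 days.

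The control groups set the background for these values. Between tMCAO and sham contralateral vessels, 0 of 8 members were called at 24 h, beside 0% of all genes, and limma gave an unadjusted p under 0.05 for 0 members and 405 genes. At 7 days 0 members were called, beside 0.0313% of all genes. Vwf, Plau and Tfpi then had an unadjusted p under 0.05, as had 1639 of all tested genes, with log2 differences of 0.63, -0.70 and -0.30. Between the hemispheres of sham-operated mice, 0 members were called at 24 h (0% of all genes, 367 with an unadjusted p under 0.05) and at 7 days (0% of all genes, 359 unadjusted), and no member had an unadjusted p under 0.05.

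Between 24 h and 7 days, only Vwf was called among the members in either sham hemisphere, as described, beside 0.476% of all genes in ipsilateral and 0.332% in contralateral vessels. In tMCAO contralateral vessels 0 members were called, beside 0% of all genes with 2637 at an unadjusted p under 0.05. Of the members, Plau (log2 difference -0.64) and Tfpi (log2 difference -0.36) were among these. Most comparisons share groups, so that the values of a member in different comparisons are not independent.

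Several members varied together from library to library irrespective of surgery. Plat, Plaur and Thbd were high in the third libraries of both sham hemispheres at 7 days, in the second tMCAO contralateral library of 24 h and in the first tMCAO contralateral library of 7 days. In the sham ipsilateral libraries of 7 days, for instance, Plat read 13341, 11386 and 37464 normalized counts and Plaur 448, 110 and 2253. Plaur thus spanned from its lowest value in the series to the fourth highest within a single sham group.

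Over the 18 libraries outside the ischemic hemisphere, Plat and Plaur correlated at r = 0.888, Plaur and Procr at 0.817, Thbd and Procr at 0.773 and Plat and Procr at 0.771. As deviations from the group means over all 24 libraries, these were 0.846, 0.857, 0.788 and 0.807. Plau and Vwf did not rise with these genes. Within groups Plau correlated at -0.51 with Plat, -0.44 with Plaur, -0.40 with Procr and -0.37 with Thbd, and Vwf at -0.28 with Plat. For Tfpi these values were -0.48, -0.51, -0.52 and -0.25 in the same order, and for F3 they were 0.479, 0.606, 0.404 and 0.234. Plau went with Tfpi (0.740 over the 18 libraries, 0.489 within groups). The total of normalized counts of a library moved with the first set, since its correlation within groups was 0.914 with Plat, 0.825 with Procr, 0.794 with Plaur and 0.686 with Thbd. Several panels moved with it as well. Within groups the astrocyte panel correlated at 0.716 with Plat, 0.723 with Plaur and 0.701 with Procr, the platelet panel at 0.650 to 0.677 with all 4 genes, the smooth muscle panel at -0.76 to -0.65 and the microglia panel at -0.70 to -0.56. These correlations are descriptions over libraries that share groups and, by number, possibly mice, and the part of the total or of any panel in them was not tested.

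**Figure D3:**
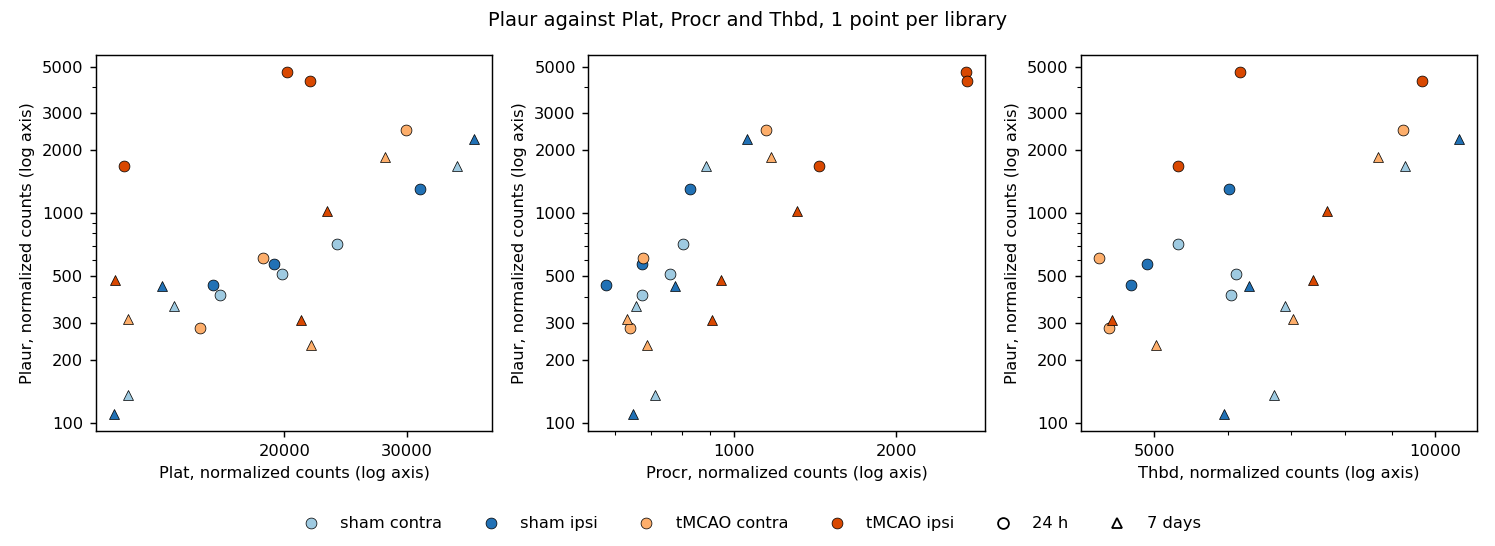
Plaur against Plat, Procr and Thbd in normalized counts (both axes log), 1 point per library, colored by surgery and hemisphere, circles for 24 h and triangles for 7 days. Plaur rises with Plat and with Procr across the libraries outside the ischemic hemisphere, and the tMCAO ipsilateral libraries of 24 h lie above the others at the same level of Plat.

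The genes most like each member over the 24 libraries, among 12158 with a mean above 50, differed between members. Plaur was most like Etf1 (r = 0.965), Atf4 (0.961), a transcription factor of the integrated stress response, and Tnfrsf12a (0.960), the receptor for the cytokine TWEAK. Plat was most like Rhob (0.958), Pttg1ip (0.934) and Mcl1 (0.915). Procr was most like Gsr (0.968), Psmd11 (0.965) and Msn (0.961), and Thbd most like Ap2a2 (0.900), Socs2 (0.895) and Hnrnpa2b1 (0.869).

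The other members had different companions. For Plau these were Trim28 (0.917), Fstl1 (0.910) and Polr1a (0.904), and for F3 they were Pla2g7 (0.919), Kcnk1 (0.899) and Foxred2 (0.882). Among the genes most like Vwf were Man2a1 (0.838) and Miip (0.837). Tfpi had the lowest likeness of the members, with S1pr2 (0.825), Aoah (0.805) and Ptafr (0.774). Within groups the likeness of Vwf fell to 0.370 for Man2a1 and 0.122 for Miip, and that of Plau to 0.479 to 0.657 for its 3 genes. For Tfpi it was 0.516 to 0.748 and for F3 0.788 to 0.837. The genes of Plat, Procr and Thbd stood at 0.893 to 0.966 within groups and those of Plaur at 0.957 to 0.968.

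Ratios of 2 members within a library do not depend on how libraries are scaled. The log2 ratio of F3 to its inhibitor Tfpi was -2.65, -2.95 and -2.58 in tMCAO ipsilateral vessels at 7 days and -1.0, -1.94 and -0.49 in sham. The groups did not overlap, and the difference was -1.58. The log2 ratio of F3 to Thbd differed by -1.60 on that day, also without overlap. The log2 ratio of Plau to Plat was -4.48, -5.12 and -4.33 in tMCAO ipsilateral vessels at 24 h and -7.13, -5.75 and -7.69 in sham, a difference of 2.21 without overlap. In each of these 3 cases the 2-sided exact permutation p was 0.1, the smallest that 3 against 3 libraries allow, and 0.2 after adjustment over the 6 tests. The other ratios overlapped, with differences of -0.46 for F3 to Tfpi and -0.79 for F3 to Thbd at 24 h and -0.63 for Plau to Plat at 7 days (exact permutation p = 0.6, 0.2 and 0.3).

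**Figure D4:**
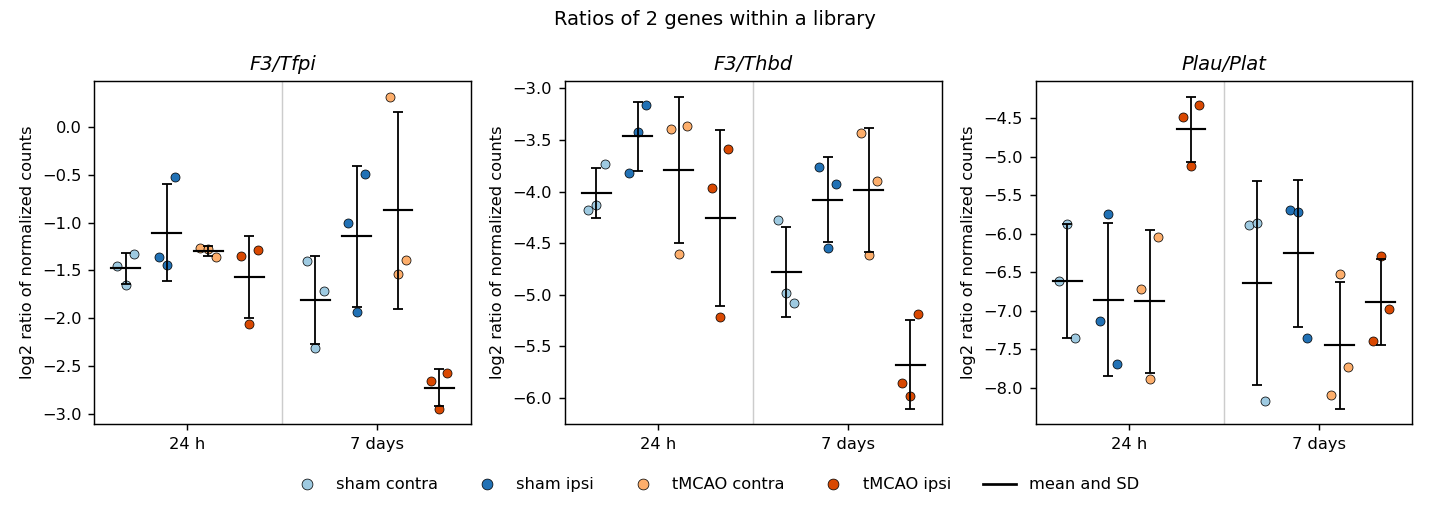
Log2 ratios of normalized counts of F3 to Tfpi, F3 to Thbd and Plau to Plat in each library, by group, with mean and SD (n = 3). The tMCAO ipsilateral libraries lie lowest for both F3 ratios at 7 days and highest for Plau to Plat at 24 h.

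Other genes of the same systems were taken from a list of 67 genes, of which 42 were tested. In the ischemic hemisphere, 11 of these were called higher and 2 lower against sham at 24 h, and 4 higher and 2 lower at 7 days. The calls were 13 of 42 at 24 h, beside 18.3% of all tested genes, and 6 of 42 at 7 days, beside 13.2%, which is close to the share among the listed genes. Their median log2 difference was 0.32 at 24 h and 0.09 at 7 days, beside -0.02 and 0.02 over all tested genes. At 24 h the called genes were 2 of 7 coagulation factors and cofactors, 2 of 5 anticoagulants, 4 of 11 fibrinolysis genes, 0 of 2 protease-activated receptors, 5 of 10 genes of platelet adhesion and 0 of 7 genes of nucleotide and prostanoid control. At 7 days these counts were 2, 1, 0, 0, 2 and 1.

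Among fibrinolysis genes, Anxa2, a surface receptor for plasminogen and Plat, rose 2.16-fold at 24 h (limma adjusted p = 0.00968), and the protease gene St14 rose 2.01-fold (adjusted p = 0.00852). Eno1, a glycolytic enzyme that also binds plasminogen at the cell surface, rose 1.61-fold (limma adjusted p = 6.68e-04), a change just under 1.5-fold when libraries were centred on the endothelial panel (log2 0.58, adjusted p = 0.0188). Anxa2 was not called without the second tMCAO library (adjusted p = 0.052), nor St14 without that library (adjusted p = 0.0544) or the first sham library (adjusted p = 0.0552). Serpini1, the gene of neuroserpin and an inhibitor of Plat made mainly by neurons, fell by 0.74 on the log2 scale at 24 h (adjusted p = 0.00254), where the neuron panel differed by -1.10. At 7 days, where that panel differed by -2.91, the log2 difference of Serpini1 was 0.14 (limma adjusted p = 0.639). The part of the neuron panel in either value was not tested.

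Among coagulation factors and anticoagulants, F10 read 79.7 ± 39.7 normalized counts in tMCAO and 10 ± 6 in sham ipsilateral vessels at 24 h, a rise of 7.48-fold (limma adjusted p = 0.00194). At 7 days it was 36.7 ± 15.3 against 7.67 ± 4.62 (4.41-fold, adjusted p = 0.022), a call lost without the first or second library of either group (adjusted p up to 0.0905). F7, the factor that F3 binds, was called at 7 days from a mean of 8.67 against 2 normalized counts, both close to the limit of detection, and not without the first or second sham library (adjusted p up to 0.061) or when only the compared groups were fitted (adjusted p = 0.105). F13a1, the fibrin crosslinking subunit, rose 1.66-fold at 24 h with overlapping libraries (adjusted p = 0.0308). It was not called without library 1 or 3 of either group (adjusted p up to 0.184), under endothelial centring (adjusted p = 0.128) or with only the compared groups fitted (adjusted p = 0.107). Tfpi2, a homologue of Tfpi, rose 5.20-fold at 24 h, from 42.3 ± 10.7 to 224 ± 55.2 (adjusted p = 0.00126). Serpind1, the gene of heparin cofactor 2, fell by 1.75 on the log2 scale at 24 h (adjusted p = 0.00452) and by 1.90 at 7 days (adjusted p = 0.00356).

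Among genes of platelet adhesion, Selp, the endothelial and platelet P-selectin that is stored with Vwf, had the largest difference at 24 h, with 2605 ± 253 normalized counts in tMCAO and 135 ± 92.1 in sham ipsilateral vessels (log2 4.60, limma adjusted p = 0.0358). The SE behind this p was estimated over all 8 groups. Leaving out any library but the second sham library ended the call (adjusted p 0.0613 to 0.138). In the 9 alternative fits that kept all libraries of the compared groups it held (limma adjusted p 0.00191 to 0.0483). Thbs1, which encodes thrombospondin 1, rose 6.34-fold at 24 h (adjusted p = 6.84e-04). Itga2b, a platelet integrin subunit, rose 3.07-fold at 24 h (adjusted p = 0.00569), and its partner Itgb3, which other vascular cells express too, rose 2.30-fold at 24 h (adjusted p = 2.3e-04) and 1.59-fold at 7 days (adjusted p = 0.028). The 7 day call of Itgb3 was lost without sham library 2 or 3 or tMCAO library 1 (adjusted p up to 0.151) and with only the compared groups fitted (adjusted p = 0.0676). Pf4, a platelet chemokine that brain macrophages also express, rose 2.05-fold at 24 h and fell by 1.66 on the log2 scale at 7 days. The 24 h call of Pf4 was lost without the first sham library (log2 0.57, adjusted p = 0.0761) and with only the compared groups fitted (log2 1.03, adjusted p = 0.0636). Ptgs1, the gene of cyclooxygenase 1 and the only gene of prostanoid control that was called, rose 1.73-fold at 7 days (adjusted p = 0.0184), but not without the third library of either group (adjusted p up to 0.0822) or under endothelial centring (log2 0.71, adjusted p = 0.0756). The platelet panel, which holds Pf4 and Itga2b, summed to 577 to 732 in tMCAO and 170 to 483 in sham ipsilateral vessels at 24 h, and its part in these values was not tested.

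**Figure D5:**
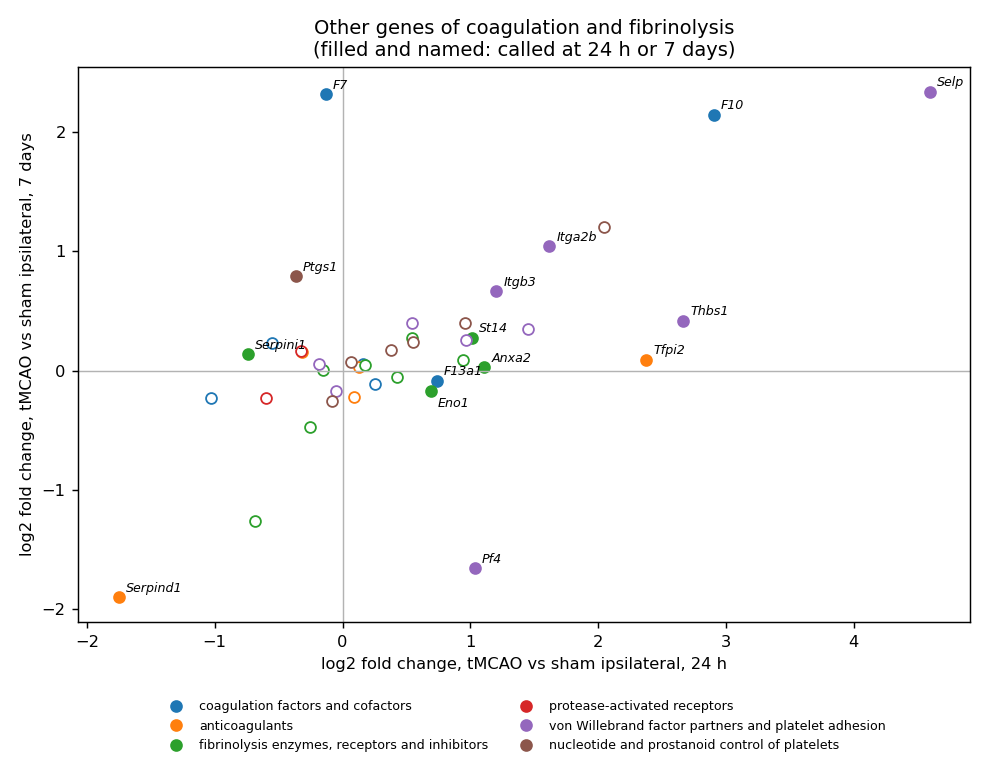
Log2 fold change of tMCAO against sham ipsilateral vessels at 24 h (horizontal) and 7 days (vertical) for the 42 tested genes of the list, colored by function, filled and named where called on either day. F10 is high on both days, Tfpi2 and Thbs1 mainly at 24 h, and Serpind1 is low on both.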

How the data were processed

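RNA of 24 libraries of brain microvessels was measured by stranded mRNA sequencing, and no raw reads were used here. The authors trimmed the reads, aligned them to mm10 (GRCm38), left out reads that matched several genes or regions and normalized the counts. The submitters' processing notes name STAR 2.5.2b, featureCounts 1.5.1 and DESeq2 1.6.2, and the paper's text gives other versions of STAR and DESeq2. The strand setting of the counting and the annotation release are not given in the sources used here. The deposited values are a score: reads of a gene divided by a size factor of the library and rounded to whole numbers. They are therefore not read counts, no counting interval was formed from them, and neither DESeq2 nor edgeR was run here. Libraries that the authors treated as outliers were not analysed here.

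Groups were taken from the labels. After 1 was added, log2 values of all genes with a mean above 5 were fitted with limma 3.58.1 in R 4.3.3, with a mean-variance trend, all 8 groups and Benjamini-Hochberg adjustment over 15982 genes. Fold changes are on this scale. Ratios within a library were compared with 2-sided exact permutation tests. The members, gene lists, motifs and tests were chosen with earlier results of these data known. Of the pathway list, called genes are named, at most the 3 with the largest rise and the 3 with the largest fall per group of genes and day. Not reported here are 1 gene of that list, which is also left out of its counts and plot, and 1 gene among those most like Vwf. Members were compared by r with genes of a mean above 50. Levels per kb used the merged length of all annotated exons of a gene in GENCODE M21, found for 99.9% of genes. Lengths of single transcripts were not used, and sequences came from RefSeq (GRCm38.p6). Alternatives were a pseudocount of 0.5, no filter or a minimum mean of 20, median centring, centring on endothelial markers, a block for the replicate number or the pool, a fit restricted to the groups compared, no fold limit and leaving out single libraries. The fit was tested on simulated data. Python 3.11.15 with numpy 2.4.6, pandas 2.3.3 and matplotlib 3.10.9 was used for tables and plots.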

Additional observations from a re-analysis of the deposited data

Results flagged for a closer look

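For 3 members the stroke effect (tMCAO minus sham, ipsilateral vessels) differed between the time points by the interaction term of the limma fit. The effect on Plau was 1.92 on the log2 scale at 24 h and -0.64 at 7 days, a difference of -2.56 (SE 0.41, adjusted p = 5.94e-04), and all 3 stroke libraries lay above sham on the first and below sham on the later day. The effect on Procr was 1.67 and 0.36, a difference of -1.31 (SE 0.38, adjusted p = 0.0338), a call that most fits with a library left out did not keep. The effect on Vwf was 0.08 and 1.27, a difference of 1.19 (SE 0.25, adjusted p = 0.00544), with lower sham levels at 7 days than at 24 h. Groups of 3 libraries were too small for a search for single deviating libraries.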

How the results depend on the processing

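The calls of Plau and Procr at 24 h and of F3 and Vwf at 7 days against sham held in every alternative limma fit, with log2 values of 1.71 to 2.26, 1.52 to 1.98, -2.20 to -1.47 and 1.14 to 1.44 when a library was left out. The number of members called between 7 days and 24 h in sham ipsilateral and in sham contralateral vessels dropped from 1 to 0 under median centring and when only the compared groups were fitted, and was 0 to 1 and 0 with a library left out. Between the tMCAO hemispheres at 7 days it dropped from 2 to 1 (F3) under endothelial centring and with only the compared groups. With only the compared groups, Plaur was called at 24 h against sham (adjusted p = 0.0118) and between the days (adjusted p = 0.0155), as was Plau at 7 days against sham (adjusted p = 0.0362). The causes were not tested.

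Signs turned only for differences that were not called. Median centring gave Tfpi -0.0018 against sham and -0.011 between hemispheres at 24 h, Plat 0.029 against sham at 7 days and Thbd 0.0019 between the days. Endothelial centring gave Tfpi -0.045 and Vwf -0.027 against sham at 24 h, Plaur -0.15 and Tfpi -0.13 between hemispheres at 7 days and Plat -0.14 between the days. That centring moved log2 differences by -0.11 at 24 h and by -0.077 at 7 days against sham, and by -0.20 between hemispheres at 7 days. Relative to the astrocyte panel, F3 at 24 h was 0.44 against sham and 0.14 between hemispheres.

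With a library left out, signs turned for Plat (-0.34 to 0.52 against sham at 7 days, -0.45 to 0.042 and -0.48 to 0.19 between hemispheres at 24 h and 7 days, -0.24 to 0.35 between the days, -0.041 to 0.82 in the interaction) and for Plaur (-0.92 to 1.26 against sham and -0.52 to 0.97 between hemispheres at 7 days). They also turned for Thbd (-0.37 to 0.051 and -0.30 to 0.16 in these comparisons, -0.29 to 0.15 between the days), Tfpi (-0.030 to 0.18 against sham at 24 h, -0.065 to 0.16 between hemispheres at 7 days), F3 (-0.35 to 0.032 between hemispheres at 24 h) and Vwf (-0.035 to 0.16 and -0.0061 to 0.19 against sham and between hemispheres at 24 h).

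Same-numbered hemispheres were compared as pairs. In sham mice every pair of libraries deviated together (r of 0.15 to 0.47 over genes), in tMCAO mice not every pair passed 0.1 (lowest 0.059), although all 6 libraries of each comparison correlated best with their own number. With the replicate block, the number of members called was 2 against sham on either day, and F3 was called in the interaction (adjusted p = 0.042). With pools as the replicate block, Plaur was called between the tMCAO hemispheres at 24 h as well (log2 2.10, adjusted p = 4.98e-04), which brought the number to 3.

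Read depth was not estimated here. With 3 libraries a group, the 95% intervals of Plat and Plaur against sham at 7 days reach past 1.5-fold in both directions.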
